A study of Mus musculus with 13 samples.

Results

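The interferon regulatory factor (IRF) genes and the interferon target Plscr1 were examined for STAT3 sites in mouse B cells. The genes were Irf1, Irf2, Irf3, Irf4, Irf5, Irf7, Irf8, Irf9 and Plscr1, and every STAT3 peak that overlapped a gene's RefSeq span or the 50 kb on either side of it was taken. This gave 58 peaks, which fell into 32 regions, out of 13513 peaks and 11227 regions in the whole series. The genes, and the contrast of Irf1, Irf8 and Irf9 with Irf4, were chosen with the presence of these peaks known. Presence, fold and rank are therefore given as a description, and no test was made of them.

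The series used CUT&RUN, in which an antibody (here against STAT3, clone 124H6) brings a nuclease to its target so that the DNA cut loose there can be sequenced. Naive B cells from spleen were first cultured for 96 h in IL-4 (12.5 ng/mL) together with an antibody that triggers CD40 (1 µg/mL), then sorted by surface isotype. From each sort 400000 cells had 1 h more with anti-CD40 and 1 of 2 cytokines. STAT3 knockout (KO) cells gave 4 libraries, 1 each for IL-21 IgM, IL-21 IgG1, IL-4 IgM and IL-4 IgG1. Wild-type (WT) cells gave 8 libraries in the same 4 groups, 2 per group, IL-21 being given at 10 ng/mL and IL-4 at 12.5 ng/mL. All groups thus shared the first 96 h with IL-4, and no IL-4 is recorded for the 1 h with IL-21, so the presence of IL-21 and the absence of IL-4 cannot be told apart. The labels do not say how or in which cells STAT3 was deleted, nor whether replicates came from separate mice, so the spread between replicates may be technical. A peak list measures neither B cell markers nor the deleted gene, and the labelled cell type and genotype could not be checked.

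IRF proteins share a DNA-binding domain that reads GAAA repeats in interferon-responsive promoters. STAT proteins, which cytokine receptors activate through JAK kinases, mostly bind a palindrome made of TTC and GAA, and IRF genes are themselves known targets of STATs. In B cells Irf4 and Irf8 have distinct roles: Irf8 is prominent in the germinal centre, whereas Irf4 is needed for class switching and plasma cells, where IL-21, STAT3 and Irf4 are known to act together on Prdm1.

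RefSeq promoter sequences (GRCm38.p6, the assembly behind mm10) were available for all 9 genes, as 12 windows that run from 250 bases before a gene's start to 50 after it. The palindrome TTCNNNGAA, which reads the same on both strands, was found in the windows of 4 genes, Irf1, Irf2, Irf8 and Plscr1, each of which had at least 1 WT IL-21 peak over it. It was in 8.30% of all 32851 promoter windows, in 21.1% of the 346 that overlapped a region of 2 or more WT IL-21 libraries and in 8.22% of the 31266 that overlapped no region. A match describes these letters only. The 250 bases before the start of these 4 genes are shown with the matches in capitals, and Irf4, with no match, stands beside them. All lie on the plus strand, Irf1 at chr11:53769764-53770013, Irf2 at chr8:46739495-46739744, Irf8 at chr8:120736108-120736357, Plscr1 at chr9:92249944-92250193 and Irf4 at chr13:30748983-30749232.
Irf1: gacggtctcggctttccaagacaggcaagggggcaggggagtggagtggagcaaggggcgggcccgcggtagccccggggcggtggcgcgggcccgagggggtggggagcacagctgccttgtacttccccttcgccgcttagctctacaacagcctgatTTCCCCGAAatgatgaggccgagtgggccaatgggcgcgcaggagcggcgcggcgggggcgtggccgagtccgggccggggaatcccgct
Irf2: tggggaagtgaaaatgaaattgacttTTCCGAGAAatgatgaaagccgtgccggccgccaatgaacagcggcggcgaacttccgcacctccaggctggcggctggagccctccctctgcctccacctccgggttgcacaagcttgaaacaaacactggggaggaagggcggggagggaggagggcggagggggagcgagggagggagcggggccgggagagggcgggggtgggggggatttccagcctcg
Irf8: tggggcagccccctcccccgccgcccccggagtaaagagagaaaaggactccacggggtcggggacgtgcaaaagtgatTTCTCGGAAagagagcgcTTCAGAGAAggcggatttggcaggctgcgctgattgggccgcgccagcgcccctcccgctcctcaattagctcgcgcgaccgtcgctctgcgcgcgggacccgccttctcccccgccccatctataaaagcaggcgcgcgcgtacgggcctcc
Plscr1: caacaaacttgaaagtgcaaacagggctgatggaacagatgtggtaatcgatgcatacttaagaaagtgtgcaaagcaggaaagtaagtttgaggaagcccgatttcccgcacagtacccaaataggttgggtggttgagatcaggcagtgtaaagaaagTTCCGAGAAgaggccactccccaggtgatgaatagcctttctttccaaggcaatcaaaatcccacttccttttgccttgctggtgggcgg
Irf4: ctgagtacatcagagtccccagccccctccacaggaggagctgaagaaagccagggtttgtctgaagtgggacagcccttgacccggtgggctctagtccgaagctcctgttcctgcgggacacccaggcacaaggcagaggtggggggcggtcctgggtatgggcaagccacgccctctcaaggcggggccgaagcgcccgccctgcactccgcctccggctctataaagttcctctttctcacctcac

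The matches began 90 bases before the start at Irf1 and at Plscr1, 224 before it at Irf2, and 171 and 153 before it at Irf8. Irf2 and Plscr1 carried the same 9 letters, TTCCGAGAA. The Irf2 window also held the IRF core (GAAA, any 2 bases, GAAA), as GAAAATGAAA, 241 bases before the start; no other member window did, and 3.44% of all windows do (both strands). A wider spacing, TTC and GAA with 4 bases between them (both strands), as STAT6 is known to prefer, was in the window of Irf9 alone among the members, beginning 1 base after the start, and in 6.95% of all windows. No peak covered it.

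The peaks of the WT IL-21 libraries made up most of the set. KO lists had 1 peak in the windows with IL-21 IgM, 0 with IL-21 IgG1, 1 with IL-4 IgM and 4 with IL-4 IgG1. WT IL-21 lists had 16 and 9 (IgM) and 10 and 13 (IgG1), and WT IL-4 lists 2 and 2 (IgM) and 0 and 0 (IgG1). The counts of the KO and of the WT IL-4 libraries thus lay below those of each WT IL-21 library. The groups overlapped in list length, with 648 to 1892 peaks per list in KO, 865 to 2034 in WT given IL-21, and 623 to 1455 in WT given IL-4. As a share of its own list the set came to at most 0.211% in KO libraries, 0.769% to 1.16% in WT IL-21 libraries and at most 0.234% in WT IL-4 libraries. Depth is not given, but fold and −log10 p together fix the number of fragments at a summit, and for these 58 peaks it was 11 to 46. The smallest summit called anywhere in a library was 10 to 12 fragments, so the lack of a peak is not a lack of binding.

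**Figure D1:**
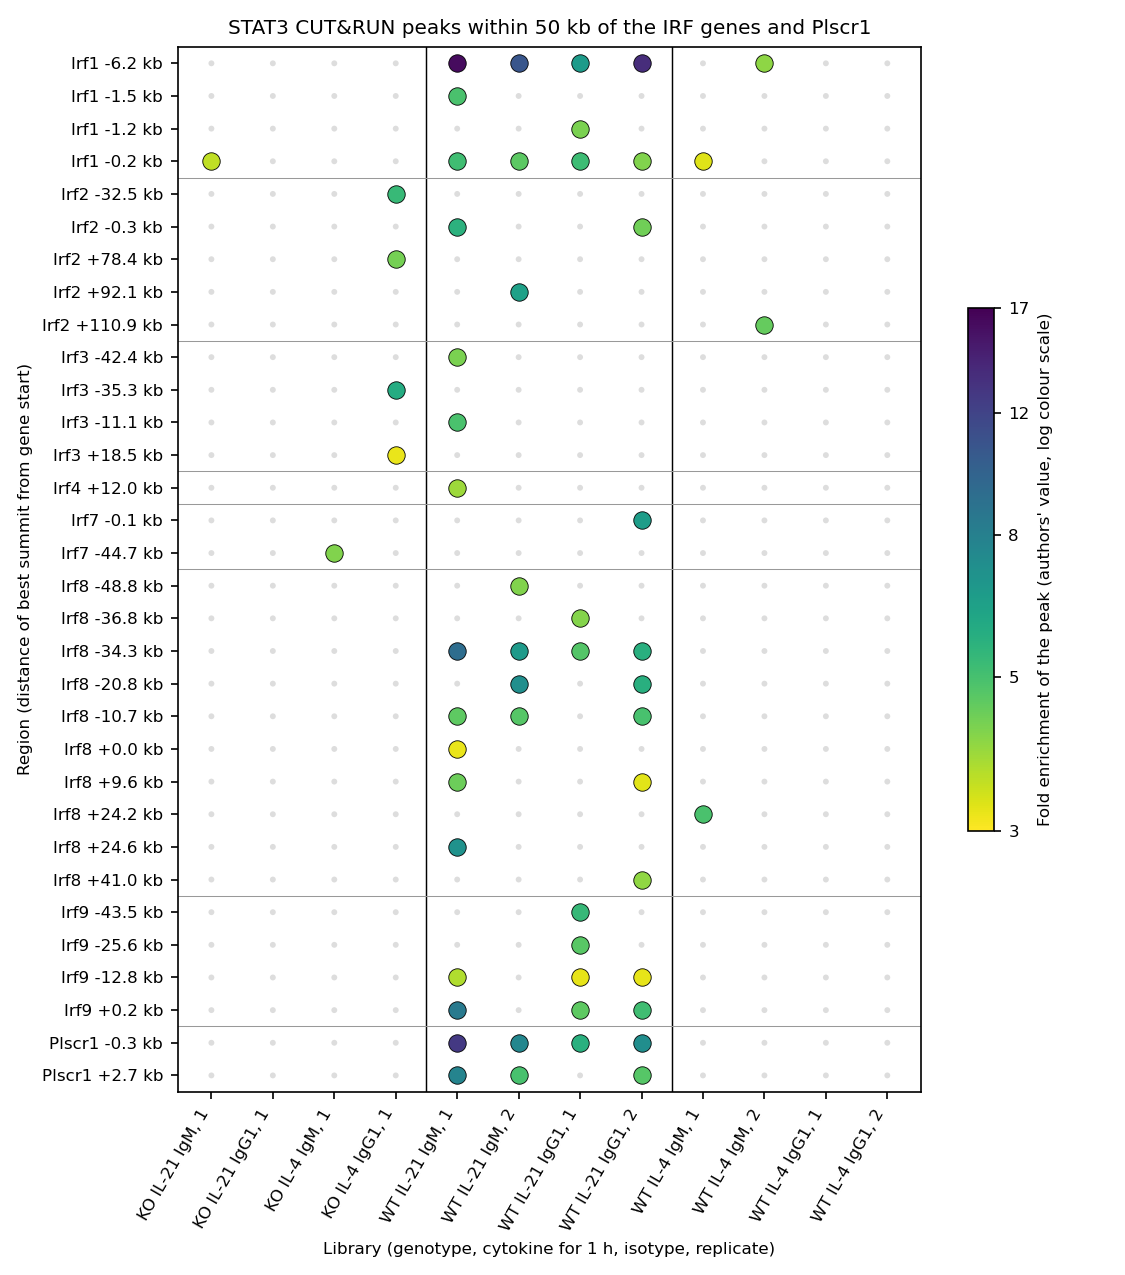
Each row is 1 of the 32 regions, named by the distance of its strongest summit from the gene start, and each column 1 library. Large dots are peaks, coloured by fold enrichment on a log colour scale, and small grey dots mark no peak. The rows with 2 or more peaks are at Irf1, Irf2, Irf8, Irf9 and Plscr1, and their peaks lie in the WT IL-21 columns except for 1 KO and 2 WT IL-4 peaks at Irf1.

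Of the 32 regions, 11 were found in at least 2 WT IL-21 libraries, where 6.17% of all regions were, and 10 of the 11 had no KO peak. Over the whole series, 568 of the 693 regions of at least 2 WT IL-21 libraries had no KO peak. Those 568 were 5.06% of all regions. None of the 32 regions was found in 2 KO libraries (1.36% of all regions were) or in 2 WT IL-4 libraries (0.793%). The other 21 regions came from 1 library each, 5 from KO, 14 from WT IL-21 and 2 from WT IL-4, with folds of 3.18 to 7.06 (90.7% of all regions came from 1 library). By gene, 8 of the 9 had any region within 50 kb, where 56.1% of 21887 protein-coding genes had, and 5 had a region of 2 or more WT IL-21 libraries, where 7.74% of those genes had. A region was called gained when all 4 WT IL-21 libraries and no WT IL-4 library had a peak there. Of the 27 regions found in WT, 2 were gained, at Irf8 and Plscr1, where 1.31% of 7461 WT regions were. Of 4 member regions found in all 4 WT IL-21 libraries, 3 had no KO peak (74.9% of the 167 such regions overall). The gained count was 4 without the second WT IL-21 IgM library, when 2 regions at Irf9 entered, and 4 without the first WT IL-21 IgG1 library, when 1 more at Irf8 and 1 more at Plscr1 entered. Joined by summits within 200 bp, the Plscr1 region was no longer gained. Since the genes were picked from this pattern, these shares support nothing further.

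Irf1, an interferon-induced activator of transcription, had the strongest region of the family. It lay 6224 bp before the start (chromosome 11, 53763109 to 53764154), and no KO library had a peak there. Its fold was 16.2 and 10.7 in WT IL-21 IgM libraries and 6.61 and 13.6 in WT IL-21 IgG1 libraries, against 4.02 in the second WT IL-4 IgM library and no peak in the other 3 WT IL-4 libraries. All 4 IL-21 values were above the lone IL-4 value, and their mean was 11.8 ± 4.11 (SD, n = 4). Each fold is the authors' value over the background the peak caller took for that library. Ordered by −log10 p within its own list, the peak was number 100 of 2034 and 78 of 1171 in WT IL-21 IgM and 87 of 865 and 64 of 1485 in WT IL-21 IgG1, against 344 of 853 with IL-4. It was thus within the top 4.31% to 10.1% of the IL-21 lists and at 40.3% of the IL-4 list. The summits stood on 46 and 39 fragments in WT IL-21 IgM and 29 and 43 in WT IL-21 IgG1, against 18 with IL-4. Because of the IL-4 peak this region was not gained; it was without the second WT IL-4 IgM library, and when peaks had to reach a −log10 q of at least 5.

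No protein-coding gene overlapped this region, but the microRNA gene Mir7671 lies inside it (chr11:53763597-53763654, minus strand). Its RefSeq hairpin is the stretch of this site whose sequence was available, and it holds the STAT palindrome, shown in capitals (U for T). Of all 1005 RefSeq mouse hairpins with a sequence here, 17 (1.69%) hold it.
Mir7671: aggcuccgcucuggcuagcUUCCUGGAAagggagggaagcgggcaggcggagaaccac
The summits lay 159 and 228 bp from the middle of this match in WT IL-21 IgM libraries, 53 and 122 bp in WT IL-21 IgG1 libraries and 57 bp in the WT IL-4 IgM library.

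At the Irf1 start a second region (chromosome 11, 53769527 to 53770647) had peaks in 6 libraries. The fold was 3.54 in the KO IL-21 IgM library. It was 5.11 and 4.65 in WT IL-21 IgM, 5.19 and 4.16 in WT IL-21 IgG1, and 3.26 in the first WT IL-4 IgM library. The WT IL-21 values were higher than the KO value and the WT IL-4 value, by less than the factor seen at the upstream region. The mean with IL-21 was 4.78 ± 0.475 (SD, n = 4). The WT IL-21 peaks ranked 514 of 2034 and 188 of 1171 in IgM and 204 of 865 and 811 of 1485 in IgG1. The KO peak ranked 952 of 1073 and the WT IL-4 peak 1453 of 1455, near the end of its list. The peaks did not coincide. The KO summit (53770370) and the WT IL-4 summit (53770355) were 15 bp apart and downstream of the start at 53770014, the WT IL-21 IgM summits (53770028 and 53770100) were at the start, and the WT IL-21 IgG1 summits (53769803 and 53769815) were upstream of it. They were joined by the 884 bp peak of the first WT IL-21 IgM library, which alone of the 6 covered the palindrome. Joining peaks instead by summits within 200 bp separated these 3 pairs. This region counted as gained without the first WT IL-4 IgM library, and at a −log10 q of at least 2. The other 2 Irf1 regions, 1548 and 1246 bp before the start, had 1 WT IL-21 peak each, with folds of 4.94 and 4.25.

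**Figure D2:**
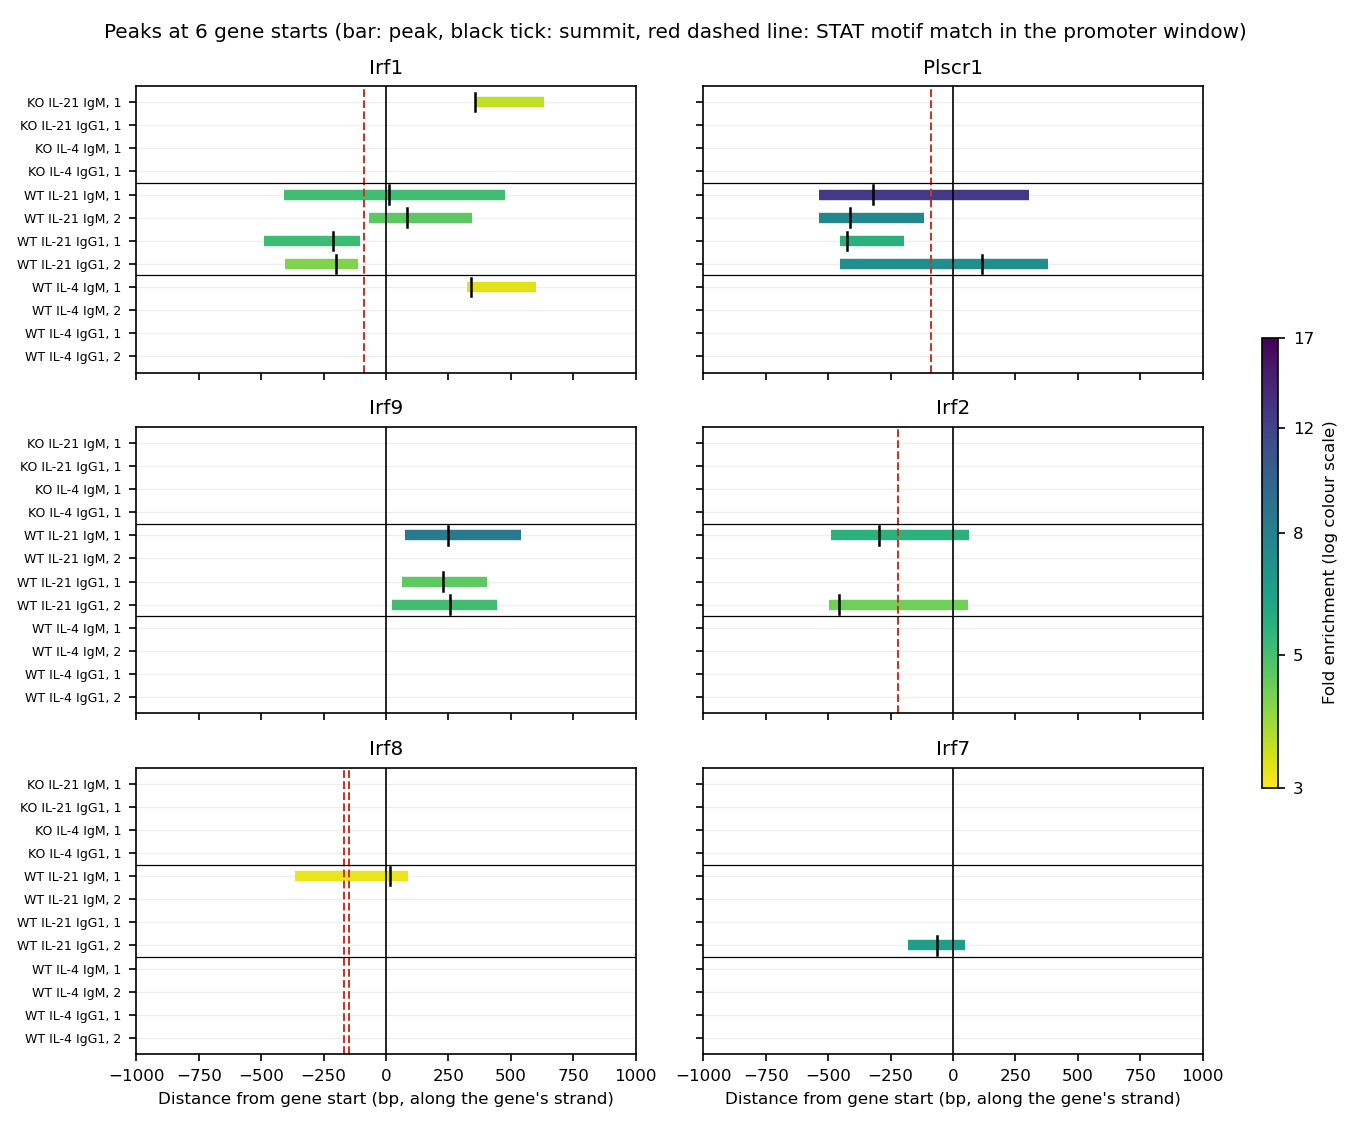
Peaks from 1000 bp before to 1000 bp after 6 gene starts are drawn as bars by library, coloured by fold on a log colour scale. Black ticks are summits and red dashed lines mark the STAT palindrome in the promoter windows. The Irf9 summits lie between 230 and 257 bp after the start, while the Irf1 summits of the KO and WT IL-4 libraries stand apart from those of the WT IL-21 libraries.

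Plscr1, a phospholipid scramblase induced by interferon, had a gained region over its start (chromosome 9, 92249656 to 92250574). No KO and no WT IL-4 library had a peak there. The fold was 12.7 and 7.61 in WT IL-21 IgM libraries and 5.67 and 7.27 in WT IL-21 IgG1 libraries, with a mean of 8.32 ± 3.05 (SD, n = 4). These peaks ranked 142 of 2034, 133 of 1171, 188 of 865 and 242 of 1485 in the same order. Peaks of the first IgM and the second IgG1 library covered the palindrome, with summits 233 and 202 bp from it, on opposite sides. In the first 3 libraries the summits lay 319 to 423 bp before the start, and in the second IgG1 library 116 bp after it. Inside the gene a second region (chromosome 9, 92252638 to 92253136), 2747 bp after the start, had a fold of 7.77 and 4.98 in WT IL-21 IgM libraries and 4.74 in the second WT IL-21 IgG1 library. It too had no KO and no WT IL-4 peak, and its summits lay within 63 bp of each other. These were the only regions in the Plscr1 window.

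Irf8, a partner of PU.1 in B and myeloid cells, had the most regions, 10, of which 0 had a KO peak, 9 a WT IL-21 peak and 1 a WT IL-4 peak. The gained one lay 34286 bp before the start (chromosome 8, 120701949 to 120702247). Its fold was 9.18 and 6.64 in WT IL-21 IgM and 4.77 and 5.69 in WT IL-21 IgG1, with a mean of 6.57 ± 1.90 (SD, n = 4), and its 4 summits fell within 24 bp. The peaks ranked 281 of 2034, 192 of 1171, 433 of 865 and 467 of 1485. By distance the nearest protein-coding gene was Cox4i1, a subunit of cytochrome c oxidase, whose span ended 27863 bp away. The nearest start in the RefSeq promoter set was that of Gm39265, 1192 bp away.

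Nearer to Irf8 were 2 further upstream regions. One lay 20824 bp before the start (120715347 to 120715664) and had folds of 7.19 in the second WT IL-21 IgM library and 5.69 in the second WT IL-21 IgG1 library. The other lay 10671 bp before it (120725130 to 120725777) and had folds of 4.60 and 4.73 in WT IL-21 IgM and 4.95 in the second WT IL-21 IgG1 library. Inside the gene a region at 9616 bp (120745557 to 120746432) had folds of 4.43 in the first WT IL-21 IgM and 3.25 in the second WT IL-21 IgG1 library. None of these 3 had a KO or a WT IL-4 peak. Each lacked a peak in the first WT IL-21 IgG1 library, which had the shortest IL-21 list. The region at 20824 bp also lacked one in the first WT IL-21 IgM library, which had the longest. The region at 9616 bp also lacked one in the second WT IL-21 IgM library. The Irf8 start, with its 2 palindromes, had a single peak, of fold 3.19, in the first WT IL-21 IgM library (rank 1720 of 2034). The WT IL-4 peak lay 24226 bp after the start (fold 4.95), and a separate WT IL-21 peak lay 24587 bp after it (fold 7.06).

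Irf9, an IRF that acts in the response to type I interferon, had 4 regions, all from WT IL-21 libraries. The one just inside the gene (chromosome 14, 55604009 to 55604524) had folds of 8.35 in the first WT IL-21 IgM library and 4.63 and 5.10 in WT IL-21 IgG1 libraries (mean 6.03 ± 2.03, SD, n = 3). In the same order its peaks ranked 243 of 2034, 308 of 865 and 641 of 1485. The 3 summits fell within 27 bp, 230 to 257 bp after the start, between the 2 RefSeq promoter windows of Irf9. The second WT IL-21 IgM library had no peak anywhere in the Irf9 window, nor had any KO or WT IL-4 library. A region 12805 bp before the start (55591146 to 55591729) had folds of 3.68 in the first WT IL-21 IgM library and 3.20 and 3.19 in WT IL-21 IgG1 libraries. Its peaks ranked 1100 of 2034, 667 of 865 and 866 of 1485. In the first WT IL-21 IgM library its fold was below the 3.87 of the Irf4 peak. This region lay 79 bp from Psme2, an interferon-inducible proteasome activator subunit, and overlapped Rnf31, a ubiquitin ligase subunit, so it is nearer to those genes than to Irf9. The last 2 were single peaks of the first WT IL-21 IgG1 library, within Dcaf11 (fold 5.31) and at Psme1 (fold 4.71).

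Irf2, a repressor that competes with Irf1 for the same elements, had 1 region of more than 1 library, over its start (chromosome 8, 46739250 to 46739810). The fold was 5.63 in the first WT IL-21 IgM library and 4.36 in the second WT IL-21 IgG1 library, with no KO and no WT IL-4 peak. It was found in only 1 library with 623 peaks from each list, and without either of these 2 libraries. Both peaks covered the palindrome, with summits 75 bp (IgM) and 236 bp (IgG1) from it. The promoter window of Gm16675 lies in the same region. The strongest summit was 65 bp from the start of Gm16675 and 295 bp from that of Irf2. The other 4 Irf2 regions were single peaks, 2 of the KO IL-4 IgG1 library (folds 5.30 and 4.30), 1 of WT IL-21 IgM (6.36) and 1 of WT IL-4 IgM (4.52). Single peaks of these folds thus occurred in KO and WT libraries alike.

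Irf7 and Irf3 carry the signal of nucleic acid sensors to the type I interferon genes, and Irf5 acts downstream of Toll-like receptors. Irf7 had a single WT IL-21 peak at its start, in the second IgG1 library (chromosome 7, 141266376 to 141266605, fold 6.52, rank 293 of 1485), and a KO IL-4 IgM peak within Deaf1 (fold 4.17). The 4 Irf3 regions were single peaks, 2 of the KO IL-4 IgG1 library (5.84 within Cpt1c and 3.18 within Scaf1) and 2 of the first WT IL-21 IgM library (4.95 at Prmt1 and 4.24 within Tsks), and each was nearer to another gene. The Irf5 window held no peak of any library. For these 3 genes no region was found in more than 1 library.

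**Figure D3:**
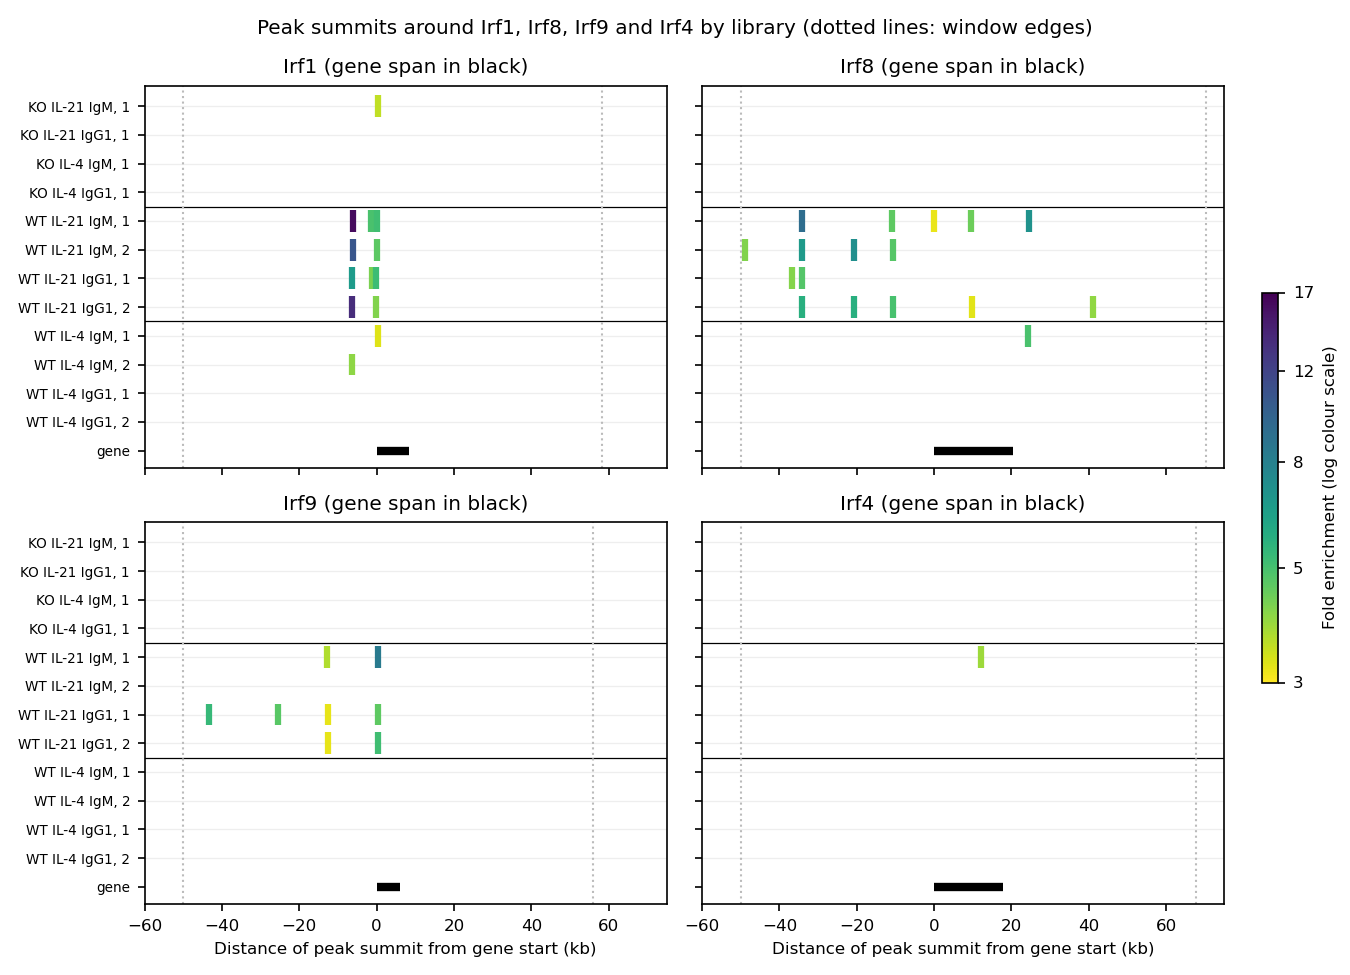
Peak summits are drawn by library against distance from the gene start in kb at Irf1, Irf8, Irf9 and Irf4, coloured by fold on a log colour scale; black bars are gene spans and dotted lines the edges of the windows. Irf4 has 1 peak, while the other 3 genes have columns of peaks in the WT IL-21 libraries.

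Irf4 had 1 peak within 50 kb, against 34 WT IL-21 peaks at Irf1, Irf8 and Irf9. It lay inside the gene (chromosome 13, 30761226 to 30761642, 12040 bp after the start) and came from the first WT IL-21 IgM library, with a fold of 3.87 on 14 fragments. It ranked 1733 of 2034, and the 10 peaks of Irf1, Irf8 and Irf9 in that library all ranked above it, although 2 of them had a lower fold. Over the 4 WT IL-21 lists, the peaks of Irf1, Irf8 and Irf9 ran from the top 4.31% to 84.6% of their list (median 33.5%). In regions of at least 2 WT IL-21 libraries the count was 8 at Irf1, Irf8 and Irf9 and 0 at Irf4. The 8 include the region nearer to Psme2 than to Irf9. They also include the gained Irf8 region, which is nearer to Cox4i1 than to Irf8. Its strongest summit lay 27863 bp from the span of Cox4i1 and 34286 bp from the Irf8 start. A count of 0 was not particular to Irf4. Irf3, Irf5 and Irf7 also had 0, and only 7.74% of protein-coding genes had such a region within 50 kb.

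The contrast depends on the window. Just outside it, at 60.5 and 62.7 kb from Irf4, were 2 regions inside Dusp22, a phosphatase gene, each found in 2 WT IL-21 libraries and in no KO or WT IL-4 library. The first (30688195 to 30688756) had folds of 8.83 in the first WT IL-21 IgM and 7.27 in the second WT IL-21 IgG1 library, and the second (30686025 to 30686507) 5.89 in the second WT IL-21 IgM and 4.42 in the second WT IL-21 IgG1 library. At 100 kb each side the counts were therefore 2 at Irf4 and 9 at the other 3 genes together. By gene these were 2 at Irf1, 4 at Irf8 and 3 at Irf9, so Irf1 and Irf4 had the same count. The added region lay within Gmpr2, 71.2 kb from Irf9, with a mean fold of 5.04 ± 1.24 (SD, n = 3). Just inside the edge, the farthest peak was 48483 bp from the span of Irf8 (fold 4.17), and just outside it a KO IL-4 IgM peak lay 50314 bp from Irf9 (fold 5.79).

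**Figure D4:**
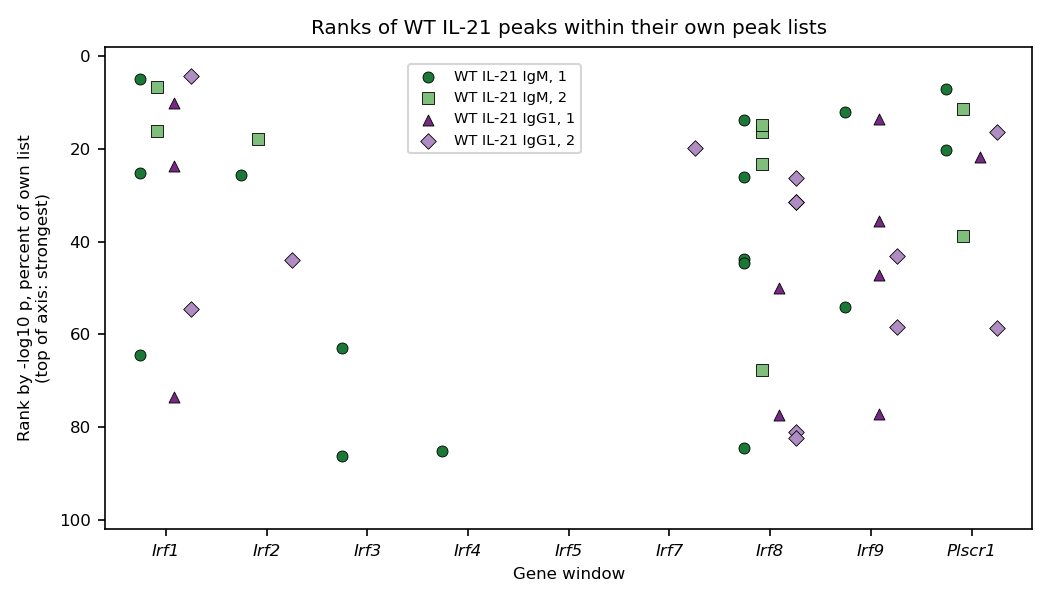
The rank of each WT IL-21 peak by −log10 p, as a percent of its own list with the strongest at the top, is plotted by gene window and library. Peaks at Irf1 and Plscr1 reach the top 4.31% and 6.98%, and the Irf4 peak lies at 85.2%.

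Both isotypes had peaks in all their IL-21 libraries at 4 regions, 2 at Irf1 and 1 each at Irf8 and Plscr1. At the Irf1 start the IgM and IgG1 summits stood apart. They were joined there only through the 884 bp peak of the first WT IL-21 IgM library, and summits within 200 bp separated them. In IgM cells 4 of the 27 WT regions had both IL-21 libraries and neither IL-4 library (4.32% of all WT regions), 2 at Irf8 and 2 at Plscr1. In IgG1 cells there were 6 (2.43% of all WT regions), 2 at Irf1, 1 at Irf8, 2 at Irf9 and 1 at Plscr1. The Irf1 regions were missing from the IgM count because each had a peak in 1 WT IL-4 IgM library, and the Irf9 regions because the second WT IL-21 IgM library lacked them. The difference between the isotypes was not tested.

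Other genes of the pathway were looked up within 50 kb in the same way. Any region at all was found at 10 of 11 interferon receptor and signalling genes (median 3 regions per gene), 23 of 34 interferon-stimulated genes (median 1.5), 10 of 13 other IRF genes and partners (median 1) and 3 of 4 scramblase genes (median 2). The median was 4 for the 9 genes described above and 1 for all protein-coding genes. Among interferon receptors and signalling genes, 5 of 11, among them Jak1, Socs1 and Ptpn2, had a region of 2 or more WT IL-21 libraries and 0 a gained one, the background being 7.74% and 1.38% of protein-coding genes. Among interferon-stimulated genes 34 of the 36 listed were entered as protein-coding, 7 had such a region and 1 a gained one. That was Nlrc5, an activator of MHC class I genes, with folds of 10.5 and 8.85 in WT IL-21 IgM and 7.94 and 8.85 in WT IL-21 IgG1, and no KO or WT IL-4 peak. The other 6 share regions in pairs: Gbp2 with Gbp3, Tap1 with Psmb9, and Psme1 with Psme2, whose regions are those of Irf9. The region of Tap1 and Psmb9 lay 42192 and 36666 bp from their spans. It also had a peak in the KO IL-4 IgG1 library (fold 5.90) and in the first WT IL-4 IgM library (3.92). Among other IRF genes and partners 2 of 13, Spib and Batf, had a region of 2 or more WT IL-21 libraries, and 0 had a gained region. The Spib region also had a peak in the KO IL-4 IgM library (fold 3.44) and in the second WT IL-4 IgG1 library (3.68). Batf, which binds DNA jointly with Irf4 and Irf8, had a region with folds of 19.8 and 17.2 in WT IL-21 IgM and 8.09 and 14.2 in WT IL-21 IgG1, against 4.61 and 3.60 in WT IL-4 IgM and 4.00 in the first WT IL-4 IgG1 library. Of 4 scramblase genes, Plscr2 had the regions of its neighbour Plscr1, and the other 2 had none of 2 or more WT IL-21 libraries.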

How the data were processed

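STAT3 peaks were compared over 12 libraries. The submitters' processing notes name build mm10, MACS2 2.2.7.1, Bowtie2 2.4.1, deepTools 3.5.1 and Trimmomatic 0.39, with no roles. Not given in the sources used here are the peak caller's control, read filters and any use of the spike-in. Each deposited list gives for each peak a fold enrichment (a ratio), a −log10 p and −log10 q (p-value and q-value), a score (10 times the −log10 p, cut to a whole number), and a summit. All are the authors' values. The lowest deposited −log10 p was 5.00.

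Of 13908 peaks, the 13513 on autosomes, X or Y entered. Peaks that overlapped by at least 1 bp were joined into regions, and a region's fold in a library is its highest peak's. Ranks are by −log10 p within a list. Spans came from a RefSeq table and starts and sequences from RefSeq promoter and miRNA tables, all on GRCm38.p6. Exons and introns were not analysed here. Positions are 1-based on mm10. Fragments at a summit were solved from fold and −log10 p, to within 0.001. Region joining and calls were run on simulated peaks, planted far apart and nearly aligned between libraries, and returned the planted counts. This did not test the joining of peaks whose summits lie apart, as at the Irf1 start. Python 3.11.15, pandas 2.3.3 and scipy 1.17.1 were used.

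The genes, lists, motifs and alternatives were chosen with earlier results of these data known. Regions of 2 or more libraries are described one by one, and the rest by counts and ranges. Of the pathway genes, Nlrc5, Batf, Spib, and Tap1 with Psmb9 are given with values, and were chosen after these were seen. The input sample was not analysed here, and some items are not reported here.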

Additional observations from a re-analysis of the deposited data

How the results depend on the processing

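No paired analysis was possible because no result comes from a test. Alternatives were stricter lists (−log10 q of at least 2 or 5), 623 peaks from each list, 2 other ways of joining peaks, windows of 20 and 100 kb, and leaving out each WT library. The count of gained regions was 2, at Irf8 and Plscr1. It was 1 with summits within 200 bp (Irf8 alone) and 1 with 20 kb windows (Plscr1 alone), and 2 to 4 when 1 library was left out. It was 4 without the second WT IL-21 IgM library, when 2 Irf9 regions entered, and 4 without the first WT IL-21 IgG1 library. It was 3, with 1 region at Irf1 added, at a −log10 q of at least 2 and without either WT IL-4 IgM library. At a −log10 q of at least 5 it stayed 2, but at Irf1 and Plscr1. The 10 regions of 2 or more WT IL-21 libraries with no KO peak ranged from 7 to 13. With 623 peaks from each list, the regions at the Irf2 start, 12.8 kb before Irf9 and 9.6 kb inside Irf8 no longer had 2 WT IL-21 libraries. The excess of 8 regions at Irf1, Irf8 and Irf9 together over Irf4 ranged from 6 to 8. It sets 3 genes against 1, chosen with these peaks known, so its direction supports nothing further. Gene by gene it did not always hold, since with 100 kb windows Irf1 and Irf4 had 2 such regions each. The median fold of the 11 regions in WT IL-21 libraries, 5.83, was 4.62 when a library without a peak was set at a fold of 1, which lowers each such region by construction. The labels give 1 KO library per group, so none could be left out, and sites with few fragments can be missed in any list.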
